A study of Mus musculus with 10 samples.

Results

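Expression of 10 genes of the NRF2 pathway was examined in mouse liver: the transcription factor gene Nfe2l2, its inhibitor gene Keap1, and the target genes Nqo1, Gclc, Gclm, Srxn1, Txnrd1, Hmox1, Slc7a11 and Osgin1. They were chosen by name as standard members of the pathway, without the glutathione transferases, and all 10 were found among the 56748 genes of the deposited count table. Of them, 9 had enough reads to be tested, as did 14068 genes in all, and Slc7a11 did not. The study compared 5 liver libraries labelled ACSS2-HKO (HKO), described as a knockout of Acss2 restricted to liver cells, with 5 labelled ACSS2-flox (flox), the floxed controls. Every mouse in either group had received a high-fat, high-fructose diet for 4 months, a model of steatohepatitis, so no library shows these genes on an ordinary diet. The labels name no Cre line, age or sex, and do not say that each library is 1 animal. The p-values therefore describe the spread between libraries, part of which may be technical.

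NRF2, the protein of Nfe2l2, is a basic leucine zipper factor that KEAP1 holds in the cytoplasm and hands to a ubiquitin ligase under basal conditions. Oxidants and electrophiles modify cysteines of KEAP1, NRF2 then escapes degradation, enters the nucleus with a small MAF partner and binds antioxidant response elements. Because NRF2 is controlled mainly at the protein level, the Nfe2l2 transcript is a poor gauge of its activity, and the transcripts of its targets are the usual readout. In liver these targets supply glutathione, thioredoxin reduction, quinone reduction and haem breakdown.

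Library totals ran from 15413648 to 19275358 counts in HKO and from 16933436 to 17196774 in flox. Levels are given as CPM, counts divided by the TMM-scaled library size, and differences as log2 fold changes (HKO over flox) ± standard error. A gene was called when its edgeR quasi-likelihood p, adjusted by Benjamini-Hochberg over all tested genes, was under 0.05. The targeted gene, Acss2, stood at 52.8, 59.0, 43.8, 40.2 and 51.4 CPM in HKO replicates 1 to 5, against 73.2, 86.9, 56.5, 128.8 and 58.6 CPM in flox replicates 1 to 5. Its log2 fold change of -0.71 ± 0.21 did not pass (edgeR adjusted p = 0.0858). It passed in 4 of 19 alternative fits, with DESeq2 (adjusted p = 0.0346), with library totals (0.0447), with no filter (0.0433) and without flox replicate 3 (0.0460). Part of its counts could belong to the opposite-strand gene Gss, which overlaps part of it, since the strand setting of the counting was not given. The deleted exons are not named in the labels, so this is a weak check of genotype. Hepatocyte markers were abundant in every library, with 12 markers summing to between 126822 and 160806 CPM in HKO and between 98757 and 153870 CPM in flox. None of the 12 was called in the main edgeR fit, and 10 had a log2 fold change above 0 (median 0.22). At an unadjusted p under 0.05, 1 was higher and 1 lower. DESeq2 called 1 higher, as did edgeR with no filter and without flox replicate 4.

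Within the pathway, 1 of the 9 tested genes was called (3.99% of all tested genes were, in either direction), the quinone reductase gene Nqo1, which fell in HKO livers to 48.4% of its flox level (95% interval 34.3 to 68.3). None was called higher in the main edgeR fit. At an unadjusted p under 0.05 there were 2 lower genes, Nqo1 and the haem oxygenase gene Hmox1, and 1 higher gene, Osgin1. DESeq2 called Nqo1 lower and Osgin1 higher, and limma-voom called Nqo1 alone. Over all tested genes 3.07% were called lower and 0.917% higher, while 10.8% were lower and 6.07% higher at an unadjusted p under 0.05. The median log2 fold change of the 9 genes was -0.19, beside 0.01 for all tested genes, and 7 of the 9 had a value below 0. The plot of levels by library shows how far the groups overlapped in each gene.

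**Figure D1:**
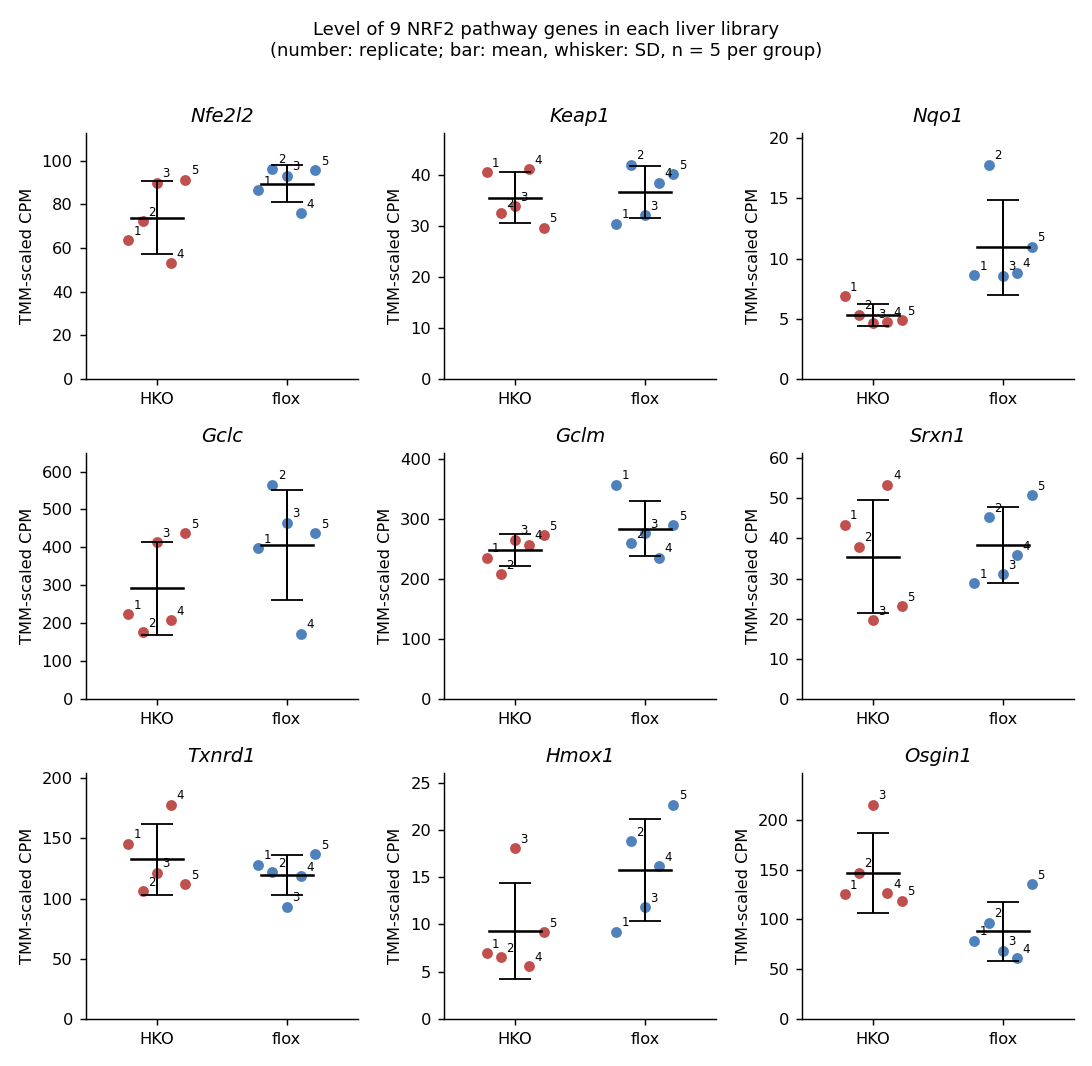
Level of the 9 tested genes in each of the 10 libraries, as TMM-scaled CPM on linear axes from 0, with HKO at left, flox at right and the replicate number beside each point. The bar is the mean and the whisker the SD (n = 5 per group). The groups are apart in Nqo1 alone, where HKO runs from 4.63 to 6.87 CPM and flox from 8.57 to 17.8 CPM.

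To show what the promoters hold, the 250 bases before the transcription start were read from RefSeq sequences on GRCm38, which gave windows for 8 of the 10 genes (Gclc and Hmox1 had none). The core of the antioxidant response element was searched as TGACNNNGC and the heptamer bound by AP-1 and related leucine zipper dimers as TGACTCA, each on both strands. TGACNNNGC was found before Nfe2l2, Gclm and 1 of the 3 starts of Txnrd1, and in 10.2% of all 32851 windows. TGACTCA was found before Osgin1 and at 2 positions before Srxn1, and in 4.46% of all windows. No window of these genes held both motifs, so no matches overlapped. Stretches with a match are printed 5′ to 3′ on the strand of the gene, with the matches in capitals. A match on the other strand appears as its reverse complement.

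The matches of Nfe2l2 (chr2:75704879-75704913, minus strand), Gclm (chr3:122245407-122245447, plus strand) and Txnrd1 (chr10:82859098-82859138, plus strand) show the element core. That of Srxn1 (chr2:152105406-152105501, plus strand) shows the heptamer at both positions.
Nfe2l2: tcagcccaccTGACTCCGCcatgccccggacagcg
Gclm: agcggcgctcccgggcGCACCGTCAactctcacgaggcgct
Txnrd1: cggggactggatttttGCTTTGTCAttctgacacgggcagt
Srxn1: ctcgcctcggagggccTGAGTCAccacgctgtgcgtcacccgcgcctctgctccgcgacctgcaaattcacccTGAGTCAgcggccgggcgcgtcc

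The whole windows of Nqo1 (chr8:107403206-107403455, minus strand) and Osgin1 (chr8:119436897-119437146, plus strand) are shown because these genes had the largest differences in each direction. Neither holds TGACNNNGC, which says only that these letters are not within 250 bases of the start used here.
Nqo1: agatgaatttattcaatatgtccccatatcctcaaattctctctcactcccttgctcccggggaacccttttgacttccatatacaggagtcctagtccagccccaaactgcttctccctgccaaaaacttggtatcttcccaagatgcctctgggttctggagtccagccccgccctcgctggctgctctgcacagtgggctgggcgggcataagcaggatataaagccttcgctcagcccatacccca
Osgin1: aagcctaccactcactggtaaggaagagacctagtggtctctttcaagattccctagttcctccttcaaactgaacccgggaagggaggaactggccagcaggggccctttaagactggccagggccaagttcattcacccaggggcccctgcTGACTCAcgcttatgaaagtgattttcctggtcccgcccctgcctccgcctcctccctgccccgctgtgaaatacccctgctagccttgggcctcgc

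The regulators themselves were not called. Nfe2l2 (ENSMUSG00000015839) had 63.5, 72.3, 89.9, 53.1 and 91.3 CPM in HKO replicates 1 to 5, against 86.5, 96.4, 93.1, 76.0 and 95.8 CPM in flox replicates 1 to 5. HKO replicates 3 and 5 lay within the flox range, and HKO replicates 1, 2 and 4 lay below every flox library. The log2 fold change was -0.27 ± 0.16, with a 95% interval from -0.62 to 0.07 (edgeR adjusted p = 0.422). Keap1 (ENSMUSG00000003308), the substrate adaptor that delivers NRF2 for degradation, averaged 35.6 ± 5.05 CPM in HKO and 36.6 ± 5.07 CPM in flox (SD, n = 5 each). Its groups overlapped throughout, and the 95% interval of its log2 fold change ran from -0.35 to 0.26 (edgeR adjusted p = 0.924).

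Of 14 other genes that act on NRF2 or share its binding sites, 0 were called by edgeR, DESeq2 or limma-voom, and Bach1 was higher and Btrc lower at an unadjusted p under 0.05 (both named after their values were seen). Their median log2 fold change was 0.02. Those of the highest mean CPM over all 10 libraries were Sqstm1, whose protein p62 can draw KEAP1 into autophagy, and Nfe2l1, which encodes the related factor NRF1. Sqstm1 averaged 380.4 ± 45.4 CPM in HKO and 359.8 ± 48.4 CPM in flox. Nfe2l1 averaged 120.7 ± 18.0 CPM in HKO and 135.9 ± 42.2 CPM in flox.

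Nqo1 (ENSMUSG00000003849) encodes NAD(P)H quinone dehydrogenase, which reduces quinones without releasing semiquinone radicals and is the textbook reporter of NRF2 activity. It had 6.87, 5.36, 4.63, 4.76 and 4.91 CPM in HKO replicates 1 to 5, against 8.63, 17.8, 8.57, 8.82 and 11.0 CPM in flox replicates 1 to 5. Every HKO library lay below every flox library, which held for 3.46% of all tested genes in this direction (groups were apart in 5.37%), and flox replicate 2 was the highest. The log2 fold change of Nqo1 was -1.05 ± 0.23 (edgeR adjusted p = 0.0230), resting on 424 counts in HKO and 962 in flox. Permuting the library labels (exact, two-sided, log2 CPM) gave p = 0.00794, the smallest that 5 against 5 libraries allow. Any gene whose groups are apart gets this value, so it is no separate support. The same permutation test, also unadjusted, gave p = 0.0635 for Hmox1 and p = 0.0317 for Osgin1. The call was lost without HKO replicate 2, 4 or 5 (edgeR adjusted p = 0.0504, 0.0599 and 0.0565) and without flox replicates 4 and 5 together (0.0587), with log2 fold changes from -1.13 to -1.01 in these fits. Without flox replicate 2 the log2 fold change was -0.80 (edgeR adjusted p = 0.0438). The deposited table places Nqo1 on the minus strand of chromosome 8, from 108114857 to 108129838, in a genome build that could not be settled.

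The 3 genes whose profile over the 10 libraries was most like that of Nqo1 were Cryzl2, Slc44a3 and Ndufaf7. Likeness was the mean absolute difference of log2 CPM after scaling each gene to mean 0 and SD 1, and it was 0.158, 0.204 and 0.207 SD for these genes in that order. Cryzl2, annotated as a quinone oxidoreductase-like gene, averaged 11.6 CPM in HKO and 22.8 CPM in flox (edgeR adjusted p = 0.0136). Slc44a3, of a choline transporter-like family, averaged 4.15 CPM in HKO and 10.3 CPM in flox (edgeR adjusted p = 0.0240, lost in 5 of 19 alternative fits), and part of its counts could belong to an overlapping gene on the other strand. Ndufaf7, an assembly factor of respiratory complex I, averaged 10.4 CPM in HKO and 14.3 CPM in flox and was not called.

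Glutathione synthesis begins with glutamate-cysteine ligase, whose catalytic subunit is encoded by Gclc and whose modifier subunit by Gclm. Gclc (ENSMUSG00000032350) had 223.0, 176.5, 414.1, 208.4 and 437.2 CPM in HKO replicates 1 to 5, against 397.8, 565.1, 464.7, 172.7 and 436.7 CPM in flox replicates 1 to 5. Its levels left a gap between 223.0 and 397.8 CPM, with HKO replicates 1, 2 and 4 and flox replicate 4 below it and the other 6 libraries above. The log2 fold change of Gclc, -0.48 ± 0.31, was not called (edgeR adjusted p = 0.485), and it was -0.67 without flox replicate 4. Gclm (ENSMUSG00000028124) had 235.7, 208.0, 266.0, 257.5 and 273.8 CPM in HKO replicates 1 to 5, against 357.5, 260.3, 276.3, 235.8 and 290.1 CPM in flox replicates 1 to 5. The groups overlapped, and the log2 fold change of -0.19 ± 0.14 was not called (edgeR adjusted p = 0.552). Slc7a11 (ENSMUSG00000027737), the cystine importer that feeds this synthesis in many cultured cells, had 1 count over the 5 HKO libraries and 4 counts over the 5 flox libraries. No library exceeded 2 counts, below the limit of 3 counts (0.156 to 0.195 CPM per library) used here as the floor, so no fold change is given.

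The same 4 libraries, HKO replicates 1, 2 and 4 and flox replicate 4, held the 4 lowest values of Nfe2l2, Gclc and Gclm. These 4 were the lowest for 276 of the 14068 tested genes (1.96%), with the 3 members among the 276. The 4 libraries were taken from the values of Gclc, so the place of Gclc among the 276 was fixed in advance. Another of the 276 is Arntl, which encodes the core clock factor BMAL1 and whose transcript oscillates strongly over the day in liver. Arntl and Dbp were singled out after their values were seen. Arntl had 1.23, 1.64, 12.3, 3.28 and 22.7 CPM in HKO replicates 1 to 5, against 12.0, 16.4, 6.28, 3.38 and 7.86 CPM in flox replicates 1 to 5. The highest level was 18.4 times the lowest, with both extremes within HKO. Dbp, another clock-driven gene, had 94.5, 102.7, 33.8, 42.0 and 2.65 CPM in HKO replicates 1 to 5, against 25.9, 19.6, 44.6, 129.5 and 44.6 CPM in flox replicates 1 to 5. The highest Dbp levels were in flox replicate 4 and HKO replicates 2 and 1. The lowest was in HKO replicate 5, where Arntl was highest. Dbp did not set all of the same 4 libraries apart, since HKO replicate 4 lay below flox replicates 3 and 5. The labels give no sampling times, and the part of the clock in the levels of these members was not tested.

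**Figure D2:**
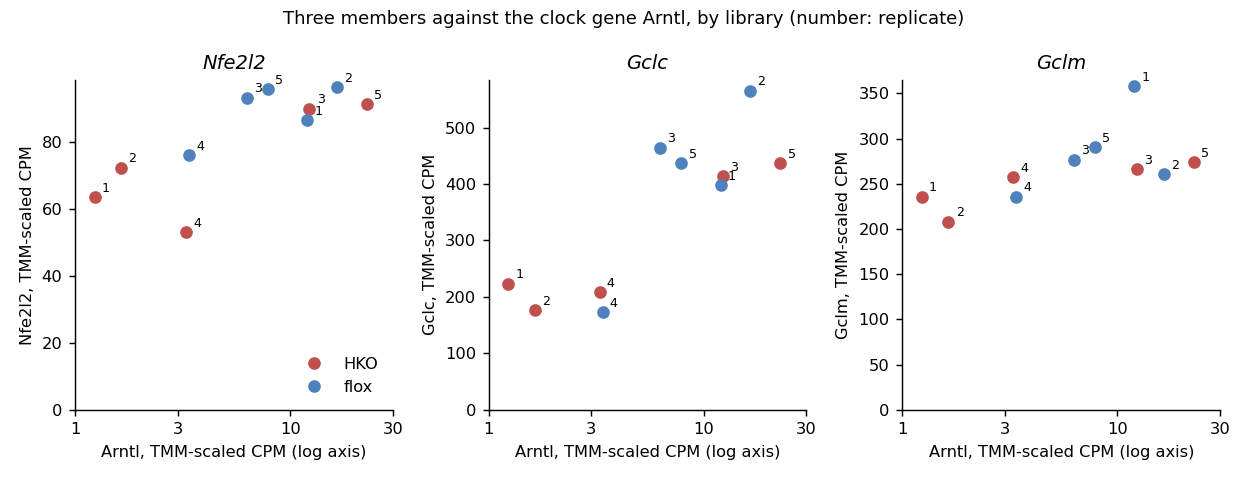
Nfe2l2, Gclc and Gclm (vertical axes, TMM-scaled CPM, linear from 0) against the clock gene Arntl (horizontal axes, TMM-scaled CPM, log axis) in the 5 HKO and 5 flox libraries, with the replicate number beside each point. HKO replicates 1, 2 and 4 and flox replicate 4 lie lowest on both axes in each panel, and in Gclc a gap from 223.0 to 397.8 CPM sets them apart. The genes shown were picked for having these lowest libraries, so that placing was fixed by the choice.

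Among the profiles of the members themselves, Nfe2l2 and Gclc were the most alike pair (mean absolute difference 0.417 SD), followed by Keap1 and Srxn1 (0.510 SD). The least alike pair was Nqo1 and Osgin1 (1.48 SD). The genes nearest to Nfe2l2 over all tested genes were Syne1, Vasn and Acat3 (0.215, 0.229 and 0.236 SD), none of them called. Vasn and Acat3 overlap more abundant genes in the table, and Acat3 is nearly identical to Acat2 in 68.9% of its transcript, so their counts are uncertain.

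**Figure D3:**
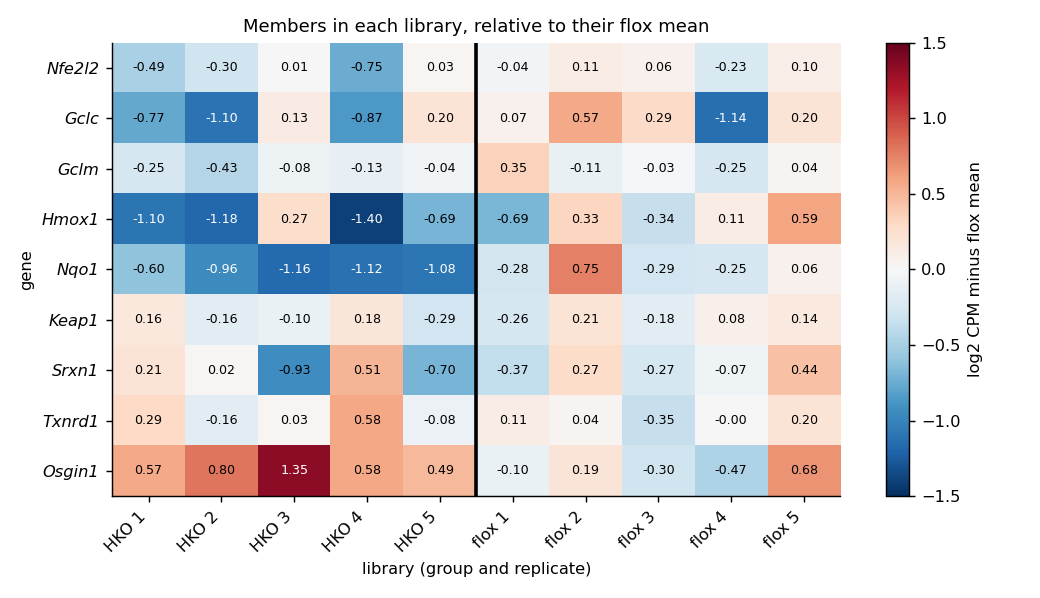
Log2 CPM of each member (rows) in each library (columns, HKO left of the black line and flox right of it) minus the mean of the member's 5 flox libraries. Blue is below and red above the flox mean, on a scale from -1.5 to 1.5. Nqo1 is below it in all 5 HKO libraries and Osgin1 above it in all 5. Nfe2l2 and Gclc are low in HKO replicates 1, 2 and 4 and also in flox replicate 4 (-0.23 and -1.14), which is the lowest library of Gclc.

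The thioredoxin branch was not called either. Srxn1 (ENSMUSG00000032802) encodes sulfiredoxin, which repairs overoxidised peroxiredoxins. It had 43.4, 37.9, 19.6, 53.3 and 23.0 CPM in HKO replicates 1 to 5, against 28.9, 45.2, 31.1, 35.8 and 50.8 CPM in flox replicates 1 to 5. Both the lowest value, in HKO replicate 3, and the highest, in HKO replicate 4, were in HKO, and the 95% interval of the log2 fold change ran from -0.67 to 0.44 (edgeR adjusted p = 0.881). Txnrd1 (ENSMUSG00000020250), the cytosolic selenoenzyme that keeps thioredoxin reduced, had 145.7, 106.1, 121.5, 178.1 and 112.2 CPM in HKO replicates 1 to 5, against 128.3, 121.9, 93.2, 118.6 and 136.8 CPM in flox replicates 1 to 5. HKO replicates 1 and 4 exceeded every flox library and the others overlapped with flox. Its log2 fold change was 0.15 ± 0.16 with a 95% interval from -0.21 to 0.50 (edgeR adjusted p = 0.715).

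Hmox1 (ENSMUSG00000005413) encodes haem oxygenase, which splits haem into biliverdin, iron and carbon monoxide, and which macrophages that clear red cells express strongly. It had 6.94, 6.55, 18.0, 5.59 and 9.20 CPM in HKO replicates 1 to 5, against 9.24, 18.8, 11.8, 16.2 and 22.7 CPM in flox replicates 1 to 5. Of the HKO libraries, 4 lay below all flox libraries, while replicate 3 lay within the flox range. The log2 fold change of Hmox1 was -0.77 ± 0.32, with a 95% interval from -1.45 to -0.08, and was not called (unadjusted p = 0.0319, edgeR adjusted p = 0.235). Without HKO replicate 3 it was -1.15 and was called (edgeR adjusted p = 0.0264), and without flox replicates 4 and 5 it was -0.52 (edgeR adjusted p = 0.651). BACH1, the repressor of Hmox1, competes with NRF2 for the same sites. Its transcript averaged 61.0 ± 6.46 CPM in HKO and 44.9 ± 10.04 CPM in flox and was not called (edgeR adjusted p = 0.151). Bach1 was named after its values were seen, and its part in the levels of Hmox1 was not tested.

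Macrophage transcripts were lower in the same HKO livers. All 15 macrophage and Kupffer cell markers were called lower in HKO (3.07% of all tested genes were), none was at 0 in every library of a group, and their median log2 fold change was -1.67. Their summed level was 158.5, 206.3, 275.7, 195.4 and 131.1 CPM in HKO replicates 1 to 5, against 484.4, 532.4, 352.1, 808.7 and 861.5 CPM in flox replicates 1 to 5. The order of the libraries matched that of Hmox1 only in part. HKO replicate 3 was highest of HKO in both, and flox replicate 5 highest of flox in both. HKO replicate 5 had the lowest sum but the second highest Hmox1 of HKO, and HKO replicate 3 had more Hmox1 than flox replicate 4 at a lower sum (275.7 against 808.7 CPM). Fewer macrophages and less RNA per macrophage cannot be told apart in whole liver, and the part of macrophages in the levels of Hmox1 was not tested. Without flox replicates 4 and 5 together, 7 of the markers were called. These libraries had the highest sums of flox, so leaving them out brings the groups closer in these markers by the choice. Of the endothelial markers 1 of 8 was called, Cdh5 (lower in HKO), all 8 had a log2 fold change below 0 (median -0.44), and 0 were called in 6 of 19 alternative fits (without HKO replicate 1, 2 or 4, flox replicate 4 or 5, or both of these). Of the stellate, cholangiocyte, neutrophil, lymphocyte and red cell markers tested, none was called in the main edgeR fit or by limma-voom. At an unadjusted p under 0.05, 3 stellate and 2 neutrophil markers were lower, and DESeq2 called 1 neutrophil marker lower. With no filter edgeR called 2 stellate and 3 neutrophil markers lower. It also called 1 stellate marker lower without flox replicate 4, and 1 neutrophil marker lower without HKO replicate 3. Only 3 of the 7 neutrophil markers were tested in the main fit, with a median log2 fold change of -1.18. Among the genes with the profile nearest to Hmox1 were Pea15a and the endothelial gene Plvap (0.228 and 0.257 SD), neither called. Both were called without HKO replicate 3 (edgeR adjusted p = 0.0395 and 0.0365), and Plvap also without flox replicate 1 (0.0431). Their counts are uncertain, since Pea15a overlaps the more abundant Dcaf8, and Plvap overlaps Gtpbp3, which had 30.7% as many counts.

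Osgin1 (ENSMUSG00000074063), known in human and rodent cells as an oxidative stress induced growth inhibitor, had the largest positive log2 fold change of the 9 tested members. It had 125.4, 147.0, 215.3, 126.4 and 118.8 CPM in HKO replicates 1 to 5, against 78.7, 96.6, 68.7, 61.1 and 135.5 CPM in flox replicates 1 to 5. Every HKO library lay above 4 of the flox libraries, and flox replicate 5 lay within the HKO range. The log2 fold change of Osgin1 was 0.73 ± 0.23, with a 95% interval from 0.25 to 1.22, and was not called (unadjusted p = 0.00621, edgeR adjusted p = 0.0954). DESeq2 called it (adjusted p = 0.0327), as did edgeR with every counted gene kept (0.0366) and without flox replicate 5 (log2 fold change 0.95, edgeR adjusted p = 0.0331). The adjusted p of Osgin1 lay between 0.0327 and 0.207 in the 19 alternative fits.

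**Figure D4:**
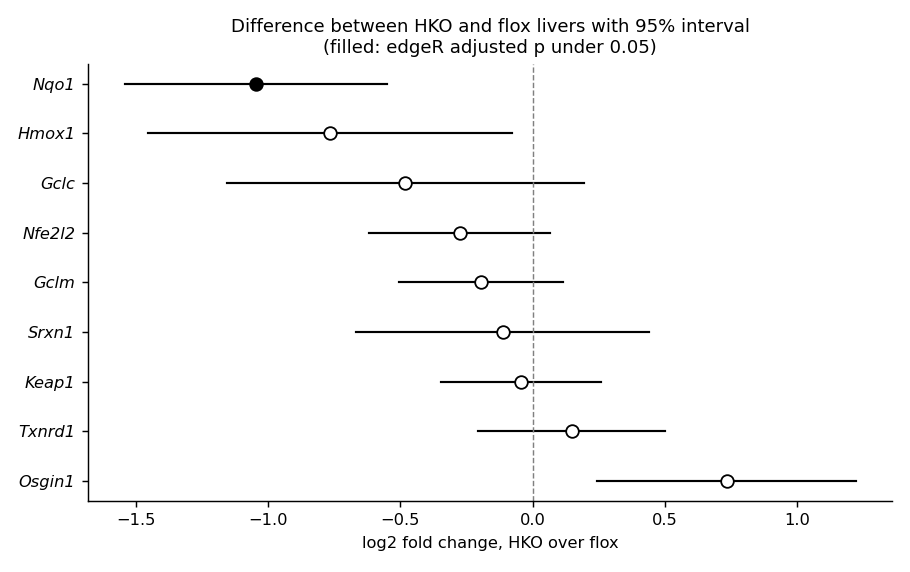
Log2 fold change of HKO over flox (horizontal axis) for the 9 tested members, with 95% intervals from the edgeR fit (n = 5 per group). Nqo1, the filled point, is the member called, at -1.05, and Osgin1 lies at the other end at 0.73. The interval of Hmox1 also lies below 0, though its adjusted p did not pass.

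To compare levels between genes, CPM was divided by the gene length in kilobases that the table lists. In HKO the order was Gclc (77.5 CPM per kilobase), Osgin1 (54.8), Gclm (39.5), Nfe2l2 (19.5), Txnrd1 (18.7), Srxn1 (12.6), Keap1 (7.58), Hmox1 (5.29) and Nqo1 (3.41). In flox it was Gclc (108.2 CPM per kilobase), Gclm (45.1), Osgin1 (33.0), Nfe2l2 (23.6), Txnrd1 (16.9), Srxn1 (13.6), Hmox1 (8.99), Keap1 (7.80) and Nqo1 (7.06). Neighbours in this order overlapped in their library ranges, except Osgin1 with Gclm and Gclm with Nfe2l2 in HKO, and Nfe2l2 with Txnrd1 in flox. Gclc had the highest mean level per length in both groups, and Nqo1 the lowest among the 9 tested genes.

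Other reported NRF2 targets, outside the 10 genes and without glutathione transferases, were lower in part. Of 25, 23 were tested, and 4 fell in HKO (17.4%, beside 3.07% of all tested genes). None was called higher by edgeR, DESeq2 or limma-voom, and the median log2 fold change was -0.40. At an unadjusted p under 0.05, 11 were lower and 0 higher, beside 10.8% lower and 6.07% higher of all tested genes. This list, like the others, was chosen with earlier results of these data known. The genes that fell were Pgd and Tkt of the pentose phosphate pathway, the carboxylesterase gene Ces1g and the efflux transporter gene Abcc4. Pgd, whose enzyme makes NADPH, had 16.3, 16.7, 13.7, 12.9 and 13.8 CPM in HKO replicates 1 to 5, against 22.8, 37.1, 19.2, 25.2 and 38.4 CPM in flox replicates 1 to 5. Every HKO library lay below every flox library (log2 fold change -0.96 ± 0.19, edgeR adjusted p = 0.0156). Tkt, transketolase, averaged 57.3 ± 7.56 CPM in HKO and 101.1 ± 19.4 CPM in flox (edgeR adjusted p = 0.0125). Without flox replicates 4 and 5 together, Pgd and Tkt were no longer called (edgeR adjusted p = 0.0731 and 0.0537). Ces1g averaged 127.6 ± 27.6 CPM in HKO and 264.1 ± 67.4 CPM in flox (edgeR adjusted p = 0.0133). Abcc4 averaged 0.900 ± 0.355 CPM in HKO and 4.32 ± 3.53 CPM in flox, where replicates 2 and 5 held 8.34 and 7.96 CPM, and its call (edgeR adjusted p = 0.0324) was lost in 9 of 19 alternative fits. Without flox replicates 4 and 5 together, 1 of these targets was called.

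The wider antioxidant system showed few calls. Of 11 tested genes of glutathione supply and reduction, 1 rose, the glutaredoxin gene Glrx, and 0 fell by edgeR, DESeq2 or limma-voom. At an unadjusted p under 0.05, Chac1 was also higher and Ggct lower. Glrx, which removes glutathione from protein thiols, had 60.0, 68.8, 56.0, 72.4 and 51.2 CPM in HKO replicates 1 to 5, against 46.1, 35.1, 40.7, 45.5 and 28.3 CPM in flox replicates 1 to 5. Every HKO library lay above every flox library, which held for 1.91% of all tested genes in this direction. Its log2 fold change was 0.66 ± 0.16 (edgeR adjusted p = 0.0329). This call was lost in 7 of 19 alternative fits, namely those without HKO replicate 1, 2 or 4 or flox replicate 2 or 5, those without flox replicates 4 and 5 together, and those scaled to library totals alone. Of 14 thioredoxin and peroxiredoxin genes 0 were called in the main edgeR fit or by DESeq2 or limma-voom. At an unadjusted p under 0.05, Prdx4 was higher and Prdx3 and Sesn3 lower. In other edgeR fits, 1 gene was called lower with library totals alone and 1 higher without flox replicate 5. The genes of this list with the highest mean CPM over all 10 libraries were Prdx1 and Prdx6. Prdx1, a cytosolic peroxidase, averaged 724.9 ± 156.3 CPM in HKO and 727.9 ± 146.5 CPM in flox. Prdx6 averaged 509.1 ± 47.3 CPM in HKO and 542.1 ± 68.3 CPM in flox.

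Of 12 tested genes that remove superoxide and peroxides, 0 were called by edgeR, DESeq2 or limma-voom, and 0 had an unadjusted p under 0.05 in edgeR. Cat, catalase, averaged 2879 ± 488 CPM in HKO and 2815 ± 385 CPM in flox, and Sod1, superoxide dismutase, averaged 690.3 ± 89.2 CPM in HKO and 648.8 ± 195.1 CPM in flox. Of 8 genes of haem and iron handling, 0 were called in the main edgeR fit or by limma-voom. Fth1 was called lower by DESeq2 and by edgeR with library totals alone (adjusted p = 0.0238). At an unadjusted p under 0.05, Hmox2 was higher and Fth1 lower. The ferritin heavy chain gene Fth1 averaged 1325 ± 105 CPM in HKO and 1918 ± 373 CPM in flox (edgeR adjusted p = 0.0889), and all HKO libraries lay below all flox libraries. The light chain gene Ftl1 averaged 990.8 ± 65.6 CPM in HKO and 1105 ± 251 CPM in flox, and near-identical pseudogenes make its counts uncertain.

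Of 8 tested genes whose products make oxidants, 5 fell and 0 were called higher in the main edgeR fit (3.07% of all tested genes were called lower). Nox4 was higher at an unadjusted p under 0.05 and DESeq2 called it higher. With no filter, and likewise without flox replicate 1, edgeR called 1 gene of this list higher. Among those that fell, Cybb, Cyba, Ncf1 and Rac2 encode parts of the phagocyte NADPH oxidase or its activator. Cybb, the catalytic subunit, had 4.80, 4.03, 7.80, 5.08 and 3.25 CPM in HKO replicates 1 to 5, against 15.7, 11.0, 8.19, 20.6 and 34.5 CPM in flox replicates 1 to 5. Every HKO library lay below every flox library, and flox replicate 5 was the highest (log2 fold change -1.85 ± 0.36, edgeR adjusted p = 0.0140). Rac2 averaged 3.13 ± 1.06 CPM in HKO and 9.97 ± 5.08 CPM in flox (edgeR adjusted p = 0.0191), and Cyba averaged 3.73 ± 1.38 CPM in HKO and 9.14 ± 3.697 CPM in flox (0.0315). The call of Cyba was lost in 8 of 19 alternative fits, that of Ncf1 in 6 and that of Rac2 in 2, and with the replicate number as a block Cyba had an edgeR adjusted p of 0.0780. Ncf1 (edgeR adjusted p = 0.0289) overlaps Gtf2ird2 on the other strand, which had more counts. These are phagocyte genes and were lower together with the macrophage markers above, and the part of macrophages in their levels was not tested. With 1 library left out the number that fell ran from 2 (without HKO replicate 4) to 6, it was 3 without HKO replicate 1, 2 or 5 or flox replicate 5, and it was 0 without flox replicates 4 and 5 together.

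**Figure D5:**
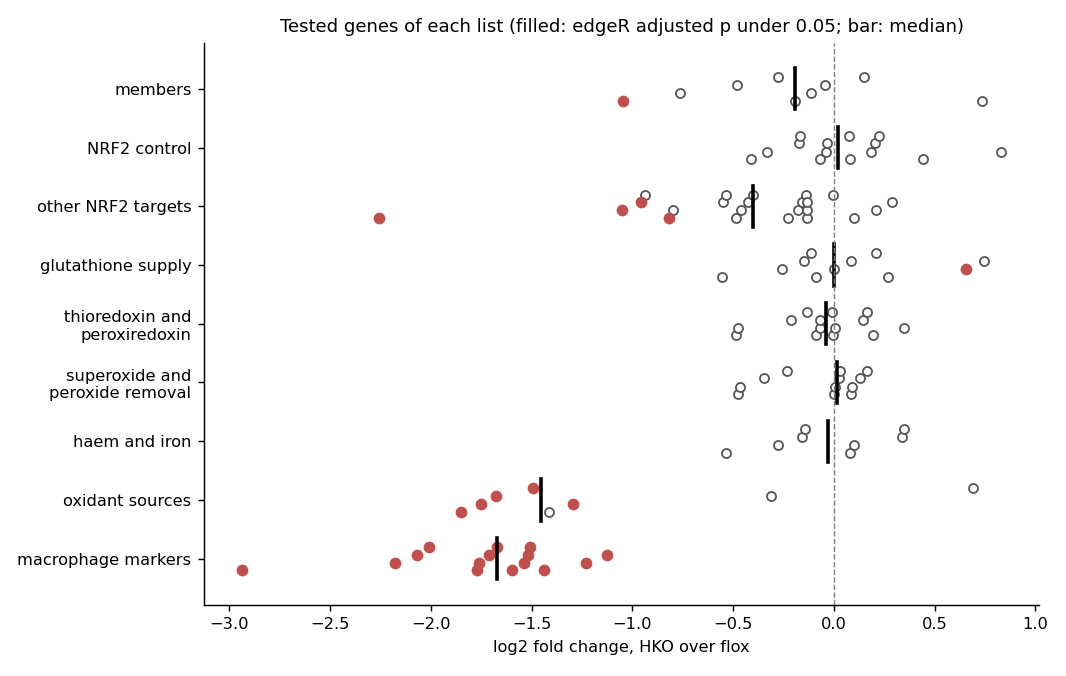
Log2 fold change of HKO over flox (horizontal axis) for every tested gene of the 10-gene pathway list, the wider antioxidant lists and the macrophage markers (rows), with called genes filled and a bar at each median. Medians lie at -0.19 for the pathway members, -0.40 for the other NRF2 targets, -1.45 for the oxidant sources and -1.67 for the macrophage markers, and within 0.04 of 0 for the other lists.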

How the data were processed

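The data are 10 RNA-seq libraries of mouse liver, made from total RNA with the VAHTS V6 kit per the labels' protocols. The authors deposited raw counts of reads per gene, unscaled whole numbers. Per the submitters' processing notes, mm10 and DESeq2 were used, while aligner, counter, annotation and strand setting were not given in the sources used here. Of 56748 gene identifiers, 52073 matched GENCODE M21 (GRCm38), with equal coordinates for only 2.83%, so the table's build is uncertain. Promoter coordinates are those of RefSeq on GRCm38.

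Genes passing filterByExpr (14068) were tested with edgeR 4.0.16 (quasi-likelihood F-test, TMM, two-sided, Benjamini-Hochberg) in R 4.3.3, after a trial on simulated data. In that trial 54% of 2-fold and 85% of 4-fold changes were called, so a gene not called may still differ. Alternatives used DESeq2 1.42.0, limma 3.58.1 (voom), other scalings and filters, the replicate number as a block, and left-out libraries. The labels do not set flox replicates 4 and 5 apart, and these had the highest macrophage marker sums of flox. Leaving out both lowers the flox level of macrophage genes by the choice, and leaves fewer flox libraries. Standard errors were derived as |log2 fold change| divided by √F. Log2 CPM used a prior count of 2. Permutation tests enumerated all 252 assignments. The limit of 3 counts covers counting error only. Libraries of a group differed beyond sampling noise (chi-square per degree of freedom at least 24.57). Near-identical copies (95% identity over 50% of the transcript) were sought with BLAST 2.17.0.

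The members and all lists were chosen with earlier results of these data known. Genes named are the members, Acss2, the called genes of each list (or the 2 of the highest mean CPM over all libraries) and the 3 most like Nfe2l2, Nqo1 and Hmox1. Other genes, such as Arntl, Dbp, Bach1, Cdh5 and those given at an unadjusted p, were named after their values were seen. Some genes that this rule names are not reported here.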

Additional observations from a re-analysis of the deposited data

Results flagged for a closer look

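Of 76 pairs of a named gene and a group, 2 held a library that stood far from the other 4 (a gap above 0.71 of the group's range, on log2 CPM), where chance flags about 1 in 20. In Slc7a11 the single count in HKO, in replicate 4, stood alone against 4 libraries at 0 (ratio 1). In Ndufaf7, one of the genes most like Nqo1, flox replicate 2 was high (ratio 0.88), at 4.25 log2 CPM against 3.75 for the next flox library. Flox replicate 2 was also the highest in Nqo1 (17.8 CPM) and the highest flox library in Gclc (565.1 CPM).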

How the results depend on the processing

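Over 19 alternative fits, DESeq2 called 1021 genes in place of 561, 269 were called without flox replicates 4 and 5 together, and 289 to 673 with 1 library left out. Members called higher in HKO numbered 1 (Osgin1) with DESeq2, with no filter and without flox replicate 5, and 0 to 1 over the fits with 1 library left out. Members called lower numbered 0 without flox replicates 4 and 5, and 0 to 2 with 1 library left out (0 without HKO replicate 2, 4 or 5, and 2, with Hmox1, without HKO replicate 3). Values near 0 changed sign. Prdx1 was at 0.0040 with DESeq2, 0.0040 with DESeq2 size factors and 0.0081 with no filter. Library totals alone, which moved the median of all genes by -0.108, gave Sqstm1 -0.031, Cat -0.065 and Sod1 -0.0095. Leaving out flox replicates 4 and 5 gave Keap1 0.032, Srxn1 0.020, Cat -0.091 and Sod1 -0.041. With 1 library left out the log2 fold changes spanned -0.10 to 0.018 for Keap1, -0.31 to 0.041 for Srxn1, -0.27 to 0.020 for Nfe2l1, -0.14 to 0.083 for Prdx1, -0.066 to 0.10 for Cat and -0.019 to 0.21 for Sod1. The cause was not tested. Same-numbered libraries correlated between -0.121 and 0.24, and 1 of 5 HKO libraries correlated best with its own number. These values do not show that the numbers pair the libraries, and they cannot exclude it. With the replicate block 448 genes were called, 1 member lower and 0 higher (log2 fold change of Nqo1 -1.002, edgeR adjusted p = 0.0383). Depth limits Slc7a11, whose 5 counts allow no comparison of levels.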
